A study of Rattus norvegicus with 9 samples.

Results

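Ubiquitin-conjugating enzymes, the enzymes that act before them and the proteases that remove ubiquitin were followed as 100 genes in RNA from rat hippocampus. They are the genes whose symbol in the count table is Uba1 to Uba7, begins with Ube2 and a letter, with Ube3b, Ube3c, Ube3d or Ube4, begins with Usp and a digit, or is Uchl1 to Uchl5. The rule uses names and not measured values, but it was set with earlier results of these data known. Of 30562 gene IDs in the table, 102 matched, and where a symbol had a second ID the less counted one was dropped. The 100 genes comprise 35 Ube2 genes, 51 Usp genes, 6 Uba genes, 5 Ube3 or Ube4 genes and 3 Uchl genes. Usp6nl shares the start of its name with the ubiquitin-specific proteases but encodes a GTPase-activating protein of Rab proteins.

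Ubiquitin is a small protein that cells attach to other proteins. An activating enzyme (E1) charges ubiquitin with ATP, a conjugating enzyme (E2) takes it over, and a ligase (E3) joins it to the substrate, while some E4 factors lengthen the chain. Deubiquitinases of the USP and UCH families cut ubiquitin off again, which rescues substrates, recycles ubiquitin and edits signals. In neurons these reactions help to set the turnover of synaptic proteins, and UCHL1 is among the abundant proteins of the brain.

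The study compared 3 groups of male Sprague-Dawley rats, 6 to 8 weeks old at the start, each with 3 hippocampal poly(A) RNA libraries. ChryM rats are read here, from the title and design of the series, as rats made into the Model group's disease model that also received chrysophanol, a plant anthraquinone, by oral gavage for 14 days; its dose is not given in the sources used here. Model rats ate a high-fat diet for 4 weeks, were injected intraperitoneally with 50 mg/kg streptozotocin, which destroys insulin-producing cells, and were kept when fasting glucose stayed at or over 16.7 mmol/L. They then went through 5 weeks of chronic unpredictable mild stress. Ctrl rats are the normal control group, and no diet, injection, vehicle or gavage is described for them in the labels. Diet, streptozotocin and stress were applied together, so their separate parts in a difference between Model and Ctrl cannot be told apart. The labels do not tie libraries to animals, so the p-values measure the spread between libraries, which may be partly technical. In the main test (edgeR) that spread was mostly pooled over all tested genes. Rps27a, for example, was tested with 198 degrees of freedom, while the model had 6 residual ones. The spread of a gene's own libraries therefore weighed little in its p-value.

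The libraries held 631119 to 866048 counts each, which is shallow, and 86 to 90 of the 100 genes had at least 1 count in a library. Together the 100 genes took 0.337% to 0.338% of the counts in ChryM libraries, 0.320% to 0.339% in Model libraries and 0.339% to 0.349% in Ctrl libraries. All 12 markers of hippocampal neurons were detected in every group. Their summed level was 1382 to 1537 CPM (counts scaled to a common library total) in ChryM, 1353 to 1399 in Model and 1536 to 1696 in Ctrl libraries. Of the 9 neuronal markers tested (edgeR, adjusted p under 0.05), 3 were lower in Model than in Ctrl (33.3%, against 12.4% of all tested genes). In ChryM, 2 were higher than in Model (22.2%, against 8.27%) and 2 were lower than in Ctrl (22.2%, against 18.8%). Markers of other cells also moved between the groups. The 10 oligodendrocyte markers summed to 15012 to 16419 CPM in ChryM, 8468 to 9385 in Model and 15506 to 16642 in Ctrl, and all 10 were lower in Model than in Ctrl at an adjusted p under 0.05. The 9 choroid plexus markers summed to 86.6 to 96.7 CPM in ChryM, 34.9 to 54.4 in Model and 1853 to 1895 in Ctrl; Kl, Aqp1 and Otx2 had no count in ChryM or Model, and Folr1 had none in ChryM. The 9 microglial markers summed to 132 to 148 CPM in ChryM, 185 to 198 in Model and 182 to 206 in Ctrl. The 8 astrocyte markers summed to 1394 to 1419 in ChryM, 1442 to 1509 in Model and 1524 to 1778 in Ctrl, and 7 endothelial markers to 45.0 to 47.8 in ChryM, 61.8 to 72.5 in Model and 77.0 to 96.6 in Ctrl. The part of these cell types in the differences described next was not tested, and in bulk tissue fewer cells of a type and less RNA per cell cannot be told apart.

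Levels of the 100 genes spanned a wide range. Per gene length, as FPKM (counts scaled to gene length and library total) averaged over the 9 libraries, the deubiquitinase Uchl1 led with 385 FPKM, followed by the E2-like gene Ube2q2l with 288 FPKM and the chain-extending E2 Ube2s with 66.5 FPKM. Usp42, a nuclear deubiquitinase known in human cells to act on p53, followed with 41.9 FPKM as the highest of the USP family. Ube2m, the E2 that carries the ubiquitin-like protein NEDD8, had 35.3 FPKM. The 26 tested USP genes had a median of 5.62 FPKM and the 21 tested E2 genes of ubiquitin a median of 10.9 FPKM. The 4 tested E3 and E4 genes lay between 2.46 and 5.70 FPKM. Ube2q2l, Uchl1 and Usp42 were the only members with over 1000 counts in all, and they held 34.5% of the 23092 counts on the 100 genes; the median member had 128.5 counts over the 9 libraries.

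**Figure D1:**
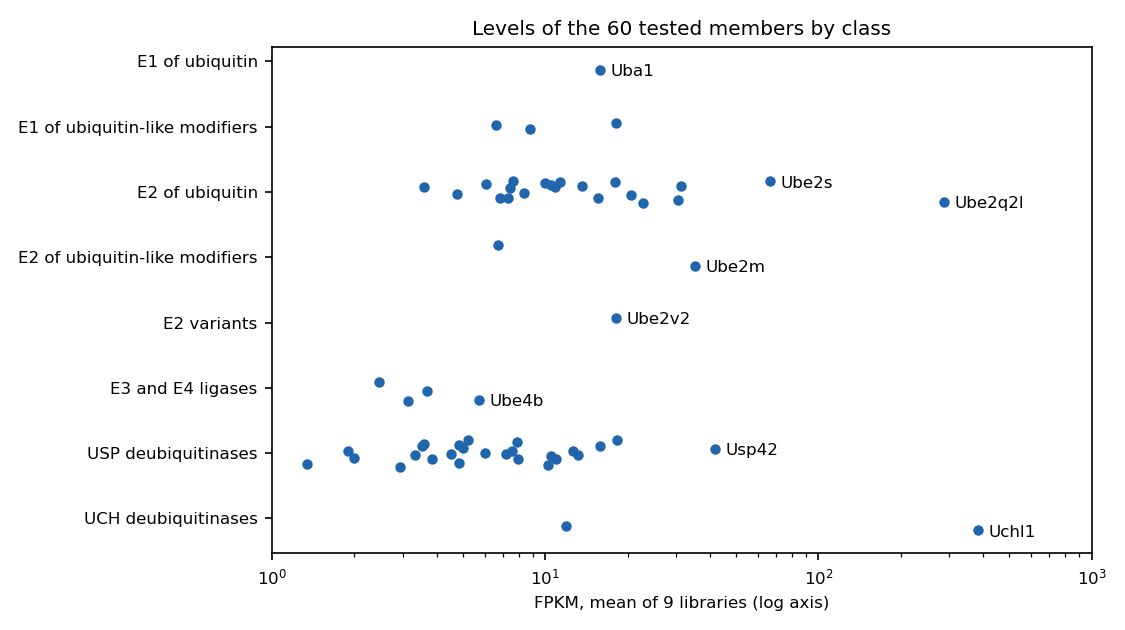
Mean FPKM over the 9 libraries (x axis, log scale) of each of the 60 tested members, by enzyme class (rows); every dot is a gene, and 8 genes described in the text are named. Uchl1 at 385 FPKM and Ube2q2l at 288 FPKM stand apart from the other members, of which Ube2s at 66.5 FPKM is the highest.

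60 members had enough counts to be tested and 40 did not. The tested members had at least 82 counts in all and the untested at most 73, so results on the 60 do not speak for all 100. Ube2d4l1, Ube2t, Ube3d, Usp26, Usp4 and Usp9y had no count in any library; 0 of 6852064 counts allows a level of up to 0.438 CPM (3 counts over the 9 libraries, counting error only). Among the untested were Uba6, the alternative E1 of ubiquitin, with 17 counts in ChryM, 7 in Model and 18 in Ctrl, and Ube2n, an E2 of signalling chains, with 15 counts in ChryM, 26 in Model and 27 in Ctrl. Uchl5, a deubiquitinase of the proteasome, had 19 counts in ChryM, 19 in Model and 28 in Ctrl.

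Between Model and Ctrl hippocampus, 4 of the 60 tested members differed, against 12.4% of all 7073 genes tested (edgeR's quasi-likelihood test, Benjamini-Hochberg adjusted p under 0.05). Ube2q2l, Usp42 and Uchl1, the 3 members with most counts, rose (against 7.04% of all genes) by 1.25-fold to 1.42-fold, and Usp32, a membrane-bound USP studied in human cells, fell (against 5.39% of all genes). As a share, 6.67% of the tested members were called, which is below the background. With scaling by library totals in place of TMM (trimmed mean of M values), which shifts the genome-wide median by -0.11 on the log2 scale, 8 members were called, 2 higher and 6 lower, against 3 higher and 1 lower with TMM. The count was 2 without Ctrl 1 and 0 with limma on log2(FPKM + 1).

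Ube2q2l (ENSRNOG00000023261) is named for its likeness to Ube2q2, an E2 of ubiquitin. It had 444, 459.7 and 481 CPM in the ChryM libraries, 519, 499.6 and 485 CPM in the Model libraries and 368, 382 and 453 CPM in the Ctrl libraries. The Model libraries all lay above the Ctrl libraries, and the ChryM libraries lay between, overlapping the highest Ctrl library. The means were 462 ± 18.4 CPM in ChryM, 501 ± 17.1 CPM in Model and 401 ± 45.6 CPM in Ctrl (SD, n = 3 each). Ube2q2l rose in Model against Ctrl by 0.33 ± 0.09 on the log2 scale (SE, adjusted p = 0.00369). This call was lost without Ctrl 1 (adjusted p = 0.0698), with library totals (0.0502) and with limma on log2(FPKM + 1) (0.0720). In ChryM against Ctrl the log2 fold change of Ube2q2l was 0.21 ± 0.08 (adjusted p = 0.0701), and it was called without Ctrl 3 (adjusted p = 0.00453). Ube2q2 itself had 27 counts in ChryM, 27 in Model and 39 in Ctrl, and its log2 fold change in Model against Ctrl was -0.23 ± 0.37; whether reads are shared between the 2 genes was not tested.

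Usp42 (ENSRNOG00000001059) had 346, 325 and 410.1 CPM in the ChryM libraries, 355, 326 and 349 CPM in the Model libraries and 247, 239 and 242 CPM in the Ctrl libraries. All ChryM and all Model libraries lay above all Ctrl libraries, and ChryM and Model overlapped. The means were 360.3 ± 44.3 CPM in ChryM, 343 ± 15.5 CPM in Model and 243 ± 3.57 CPM in Ctrl (SD, n = 3 each). Usp42 rose by 0.50 ± 0.10 on the log2 scale in Model against Ctrl (adjusted p = 2.25e-05) and by 0.56 ± 0.09 in ChryM against Ctrl (adjusted p = 3.94e-07), comparisons that share the Ctrl libraries. Both calls were kept whichever library was left out, but the Model against Ctrl call was lost with limma on log2(FPKM + 1) (adjusted p = 0.0583). In the RefSeq annotation of GRCr8, Usp42 overlaps Cyth3, which had 13 counts in ChryM, 10 in Model and 24 in Ctrl, too few to test.

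Uchl1 (ENSRNOG00000002343), a deubiquitinase long used as a neuronal marker, had 410.2, 396 and 419 CPM in the ChryM libraries, 419.9, 438 and 468 CPM in the Model libraries and 381, 319 and 339 CPM in the Ctrl libraries. The Model libraries lay highest and the Ctrl libraries lowest, with the ChryM libraries between them and no overlap of any pair of groups, though the highest ChryM library all but reached the lowest Model library. The means were 409 ± 11.6 CPM in ChryM, 442 ± 24.3 CPM in Model and 346 ± 31.7 CPM in Ctrl (SD, n = 3 each). Uchl1 rose by 0.35 ± 0.09 on the log2 scale in Model against Ctrl (adjusted p = 0.00192), a call kept whichever library was left out. With limma on log2(FPKM + 1) that call was lost (adjusted p = 0.0572). In ChryM against Ctrl Uchl1 rose by 0.24 ± 0.09 (adjusted p = 0.0404). That second call was lost without Ctrl 2 (adjusted p = 0.228), Ctrl 3 (0.0605), Model 1 (0.0567), Model 2 (0.0592), ChryM 1 (0.104), ChryM 2 (0.0565) or ChryM 3 (0.127). In all, it was lost in 15 of the 20 other settings that tested it, among them library totals (adjusted p = 0.115) and DESeq2 (0.0874). The 12 neuronal markers summed to 1382 to 1537 CPM in ChryM, 1353 to 1399 in Model and 1536 to 1696 in Ctrl libraries. These sums are scaled to library totals without TMM, unlike the Uchl1 values. The part of the neuronal markers in the Uchl1 values was not tested. Apbb2, which overlaps Uchl1 on the opposite strand, had 23 counts in ChryM, 22 in Model and 38 in Ctrl.

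Usp32 (ENSRNOG00000027711) had 19.5, 26.0 and 16.1 CPM in the ChryM libraries, 22.1, 8.27 and 24.0 CPM in the Model libraries and 33.0, 32.7 and 37.0 CPM in the Ctrl libraries. All ChryM and Model libraries lay below all Ctrl libraries, and Model 2 was the lowest of the 9. The means were 20.5 ± 5.02 CPM in ChryM, 18.1 ± 8.58 CPM in Model and 34.2 ± 2.37 CPM in Ctrl (SD, n = 3 each). Usp32 fell by 0.87 on the log2 scale in Model against Ctrl (log2 fold change -0.87 ± 0.29, adjusted p = 0.0253) and its log2 fold change in ChryM against Ctrl was -0.71 ± 0.26 (adjusted p = 0.0404). The Model against Ctrl call was lost without Model 2 (adjusted p = 0.282), Ctrl 1 (0.0577) or Ctrl 3 (0.0744). The ChryM against Ctrl call was lost without Ctrl 1 (adjusted p = 0.0807), Ctrl 2 (0.0710), Ctrl 3 (0.114), ChryM 1 (0.109) or ChryM 3 (0.168). Both calls were lost with limma on log2(FPKM + 1) (adjusted p = 0.0727 and 0.152), and the ChryM against Ctrl call also with DESeq2 (0.255). Chct1, which overlaps Usp32 in the RefSeq annotation, had no count.

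**Figure D2:**
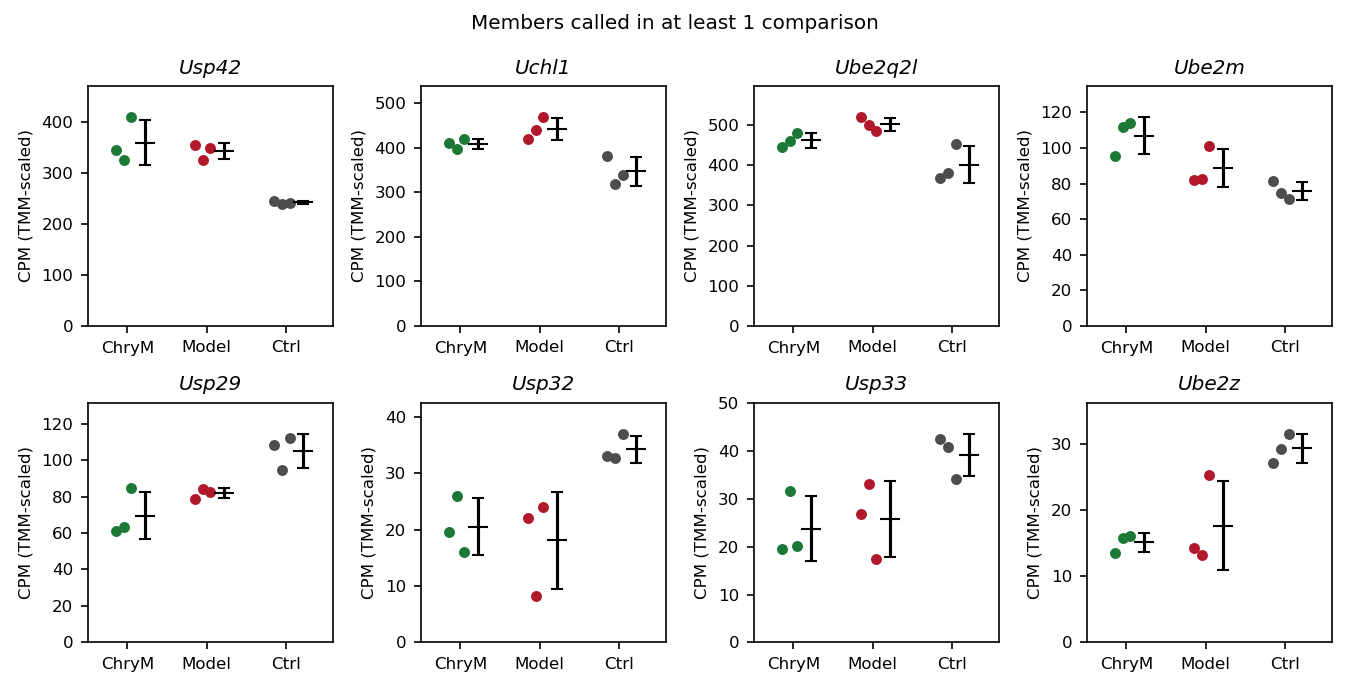
TMM-scaled CPM (y axis, from 0) of the 8 members called in at least 1 comparison, in ChryM, Model and Ctrl libraries; dots are libraries, the bar beside them the mean ± SD (n = 3). Usp42 lies at 325 to 410.1 CPM in ChryM and 326 to 355 in Model, above 239 to 247 in Ctrl, and Usp32, Usp33 and Ube2z are highest in Ctrl.

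Promoters are shown for the members called in Model against Ctrl that matched the RefSeq promoter table, which are Uchl1 and Ube2q2l, which rose, and Usp32, which fell; Usp42 was not matched. Each run is RefSeq sequence of GRCr8, 250 bases before to 50 bases after the gene start, 5′ to 3′ on the strand of the gene, and capitals mark matches to GGGCGG (the GC box) or TATAAA (the TATA box) on either strand. Uchl1 is at chr14:41849368-41849667, Ube2q2l at chrX:12513430-12513729 and Usp32 at chr10:70501990-70502289, all on the minus strand. Of the 100 members, 80 matched the table by symbol.
Uchl1: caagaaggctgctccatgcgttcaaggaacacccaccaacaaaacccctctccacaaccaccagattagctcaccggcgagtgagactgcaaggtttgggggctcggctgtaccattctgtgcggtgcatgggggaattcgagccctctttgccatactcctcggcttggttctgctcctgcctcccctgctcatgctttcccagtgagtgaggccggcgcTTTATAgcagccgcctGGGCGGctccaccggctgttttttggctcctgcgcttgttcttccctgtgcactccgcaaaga
Ube2q2l: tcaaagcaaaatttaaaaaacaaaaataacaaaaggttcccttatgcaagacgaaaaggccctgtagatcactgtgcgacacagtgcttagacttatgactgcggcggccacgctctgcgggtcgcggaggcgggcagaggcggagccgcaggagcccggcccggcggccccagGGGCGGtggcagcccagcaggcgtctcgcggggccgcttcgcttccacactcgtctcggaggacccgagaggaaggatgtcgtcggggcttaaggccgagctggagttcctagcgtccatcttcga
Usp32: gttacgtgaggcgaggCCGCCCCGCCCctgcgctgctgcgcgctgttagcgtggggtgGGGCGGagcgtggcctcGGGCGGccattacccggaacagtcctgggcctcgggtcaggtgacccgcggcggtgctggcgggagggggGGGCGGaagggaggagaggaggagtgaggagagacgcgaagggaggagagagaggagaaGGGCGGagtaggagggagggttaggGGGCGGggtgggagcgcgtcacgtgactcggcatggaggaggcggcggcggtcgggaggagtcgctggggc

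The Uchl1 promoter had 58.7% G and C with 14 CpG dinucleotides, a GC box starting 13 bases before the gene start and a TATA box match on the reverse strand starting 29 bases before it. The Ube2q2l promoter had 61.0% G and C, 28 CpG dinucleotides and a GC box 76 bases before the start. The 50 bases from the gene start of Ube2q2l begin with ATG, so this start may be that of the coding sequence. The distance of the GC box to a transcription start was not tested. The Usp32 promoter had 73.0% G and C, 32 CpG dinucleotides and 7 GC boxes, of which the 2 on the reverse strand overlap. Over all 33469 promoters of the table the median was 51.7% G and C and 7 CpG dinucleotides. GGGCGG was found in 53 of the 77 members with exactly 1 promoter (68.83%), against 33.06% of all promoters. TATAAA was found in 6 of them (7.79%), against 14.22% of all promoters, and CCAAT in 21 (27.27%), against 37.49%. The NRF1 motif (GCGC, any base, TGCGC) was found in 10 (12.99%), against 4.25% of all promoters, and the cAMP response element TGACGTCA in 0, against 1.83%. The set of all promoters was not limited to genes with 1 promoter or to any kind of gene, so it is unlike the members' set. Whether these shares are particular to the members was not tested. Both strands were searched, and a match describes the letters of the window only.

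Called or not, the Model and Ctrl libraries did not overlap for 15 of the 60 tested members (25.0%), against 26.1% of all tested genes, 5 higher and 10 lower in Model. The median log2 fold change of the 60 members was -0.13, against -0.02 over all tested genes, and 38 of the 60 values were negative. An unadjusted p under 0.05 was reached by 12 members, against 23.5% of all genes. Usp35 had 36.3, 24.8 and 29.3 CPM in Model against 13.0, 19.9 and 19.2 CPM in Ctrl libraries and missed the threshold at 0.80 ± 0.29 on the log2 scale (adjusted p = 0.0515). Ube2s, which extends chains with the anaphase-promoting complex, had 69.5, 67.8 and 101 CPM in Model against 56.6, 70.1 and 45.2 CPM in Ctrl and also missed it, at 0.48 ± 0.18 (adjusted p = 0.0533). The Model libraries of Ube2s overlapped the Ctrl libraries, while those of Usp35 did not. Usp14, the deubiquitinase of the proteasome whose loss causes ataxia in mice, had 41.0, 26.5 and 33.3 CPM in Model and 43.6, 44.4 and 58.9 CPM in Ctrl, which is -0.52 ± 0.22 on the log2 scale (adjusted p = 0.113). Usp5, which takes free ubiquitin chains apart, had 48.9, 59.6 and 60.0 CPM in Model and 69.6, 87.6 and 69.8 CPM in Ctrl, at -0.43 ± 0.18 (adjusted p = 0.101). Usp22, the deubiquitinase of the SAGA complex, had 64.7, 52.9 and 68.0 CPM in Model and 69.6, 86.4 and 91.7 CPM in Ctrl, at -0.40 ± 0.17 (adjusted p = 0.118). For these 3 genes every Model library lay below every Ctrl library. All 3 were called lower in Model than in Ctrl with library totals (edgeR, adjusted p = 0.0421 for Usp14, 0.0288 for Usp5 and 0.0323 for Usp22). They were also called with a mean count of at least 30. In ChryM against Ctrl, Usp22 was called lower in 7 of the other settings and Usp5 in 2, but neither was called in the main test.

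Between ChryM and Model hippocampus, 0 of the 60 tested members differed, against 8.27% of all genes tested (edgeR, adjusted p under 0.05), that is 3.86% of all genes higher and 4.41% lower in ChryM. An unadjusted p under 0.05 was reached by 4 of the 60, against 19.3% of all genes, and DESeq2 (with an adjusted p for 21 members), limma-voom and limma on FPKM also called 0. The median log2 fold change of the members was -0.00, against 0.00 over all tested genes, with 30 values on either side of 0. The groups did not overlap for 7 members (11.7%), against 23.6% of all tested genes, 2 higher and 5 lower in ChryM. The median SE of a tested member's log2 fold change was 0.27, and a p that misses the threshold does not show that the groups were alike. Without Model 3, 1 member was called.

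That member was Ube2e1, a conjugating enzyme of the UBE2E family, which had 40.3, 32.8 and 34.8 CPM in ChryM and 69.5, 54.6 and 41.3 CPM in Model libraries, beside 43.6, 45.5 and 37.0 CPM in Ctrl libraries. Every ChryM library lay below every Model library, and the Model libraries were spread widely. Its log2 fold change in ChryM against Model was -0.60 ± 0.21, with a 95% interval of -1.01 to -0.18 before adjustment and an adjusted p of 0.0606, or 0.0221 without Model 3. Ube2e1 was singled out after its values were seen.

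For the 4 members called in Model against Ctrl, the 95% intervals of ChryM against Model show how closely the difference was measured. Usp42 gave 0.06 on the log2 scale with an interval of -0.12 to 0.24 (adjusted p = 0.790). Uchl1 gave -0.12 (-0.29 to 0.05, adjusted p = 0.499) and Ube2q2l -0.12 (-0.28 to 0.05, adjusted p = 0.477), and for both every ChryM library lay below every Model library. Usp32 gave 0.16 with the wide interval of -0.46 to 0.78 (adjusted p = 0.848). Usp54 had 98.9, 68.9 and 80.4 CPM in ChryM and 60.0, 61.2 and 62.7 CPM in Model libraries, and Usp8, the deubiquitinase of endosomal sorting, had 13.4, 18.1 and 12.1 CPM in ChryM and 18.9, 28.1 and 21.3 CPM in Model. Usp54 and Usp34 lay higher in every ChryM than in every Model library, at 0.43 ± 0.17 (adjusted p = 0.119) and 0.36 ± 0.22 (adjusted p = 0.388) on the log2 scale. Ube2ql1, named for its likeness to the UBE2Q enzymes, and Usp8 lay lower in every ChryM library, at -0.35 ± 0.16 (adjusted p = 0.189) and -0.62 ± 0.32 (adjusted p = 0.279).

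**Figure D3:**
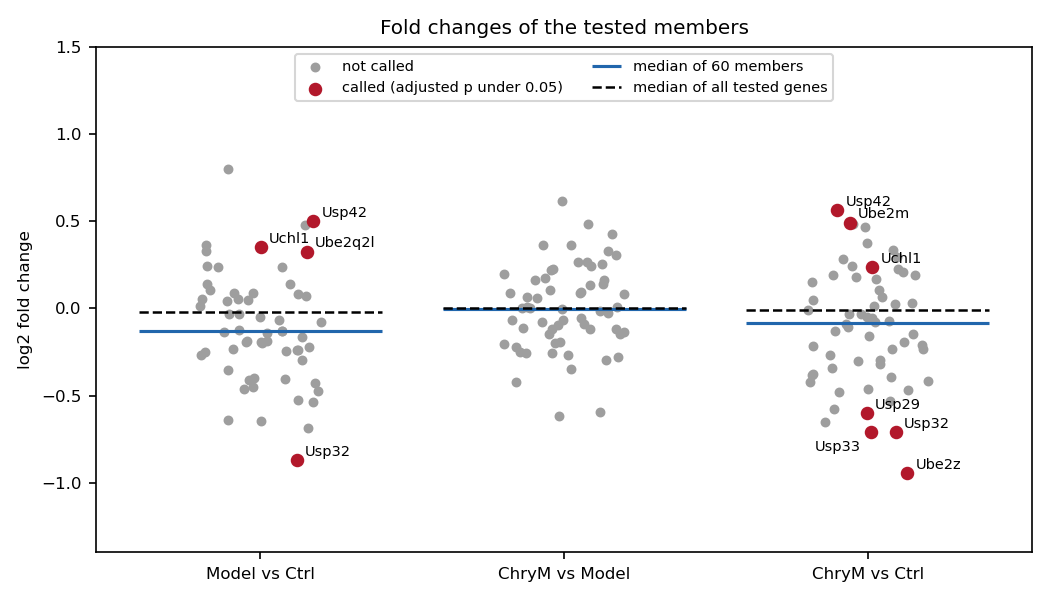
Log2 fold change (y axis) of each of the 60 tested members in the 3 comparisons; red dots are called at an adjusted p under 0.05, the blue line is the median of the members and the dashed line that of all 7073 tested genes. The members' median lies at -0.13 in Model against Ctrl, -0.00 in ChryM against Model and -0.08 in ChryM against Ctrl.

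Between ChryM and Ctrl hippocampus, 7 of the 60 tested members differed (11.7%), against 18.8% of all genes tested (edgeR, adjusted p under 0.05). Usp42, Uchl1 and Ube2m rose, against 9.83% of all genes, and Usp29, Usp33, Usp32 and Ube2z fell, against 8.96%. The largest of these changes was that of Ube2z, at 0.520 times the Ctrl level. The groups did not overlap for 11 members (18.3%), against 31.7% of all tested genes, 3 higher and 8 lower in ChryM, and 12 members had an unadjusted p under 0.05, against 29.6% of all genes. The members' median log2 fold change was -0.08, against -0.01 over all tested genes, with 37 of 60 values negative. With scaling by library totals 9 members were called, 2 higher and 7 lower, against 3 higher and 4 lower with TMM. Without ChryM 3, 4 members were called, and DESeq2 called 2 of the 43 for which it gave an adjusted p.

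Ube2m (ENSRNOG00000027514) loads NEDD8 onto cullins, the scaffolds of a large group of ubiquitin ligases. It had 95.2, 112 and 114 CPM in the ChryM libraries, 82.1, 82.7 and 101 CPM in the Model libraries and 81.4, 74.7 and 71.2 CPM in the Ctrl libraries. The ChryM libraries lay above all Ctrl libraries and the Model libraries also did, with ChryM and Model overlapping. The means were 107 ± 10.2 CPM in ChryM, 88.7 ± 10.9 CPM in Model and 75.8 ± 5.18 CPM in Ctrl (SD, n = 3 each). Ube2m rose by 0.49 ± 0.14 on the log2 scale in ChryM against Ctrl (adjusted p = 0.00765), a call kept whichever library was left out. That call was lost with DESeq2 (adjusted p = 0.0703) and with limma on log2(FPKM + 1) (adjusted p = 0.0602). The values of Ube2m were 0.24 ± 0.16 in Model against Ctrl (adjusted p = 0.385) and 0.26 ± 0.15 in ChryM against Model (adjusted p = 0.335). Chmp2a, which overlaps Ube2m on the same strand in the RefSeq annotation, gave 0.36 ± 0.16 in ChryM against Ctrl (adjusted p = 0.0998).

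Ube2z (ENSRNOG00000006868) takes ubiquitin from the E1 Uba6. It had 13.4, 15.8 and 16.1 CPM in the ChryM libraries, 14.2, 13.2 and 25.3 CPM in the Model libraries and 27.1, 29.2 and 31.5 CPM in the Ctrl libraries. All ChryM and Model libraries lay below all Ctrl libraries, Model 3 being close to them. Its log2 fold change in ChryM against Ctrl was -0.94 ± 0.29 (adjusted p = 0.0109), and 0.0516 without ChryM 1. In Model against Ctrl it was -0.68 ± 0.30 (adjusted p = 0.116), called without Model 3 (adjusted p = 0.0444). The E1 that loads it, Uba6, had too few counts to test.

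Usp29 (ENSRNOG00000015956) is an imprinted gene, expressed from the paternal copy in mice. It had 61.0, 63.2 and 84.4 CPM in the ChryM libraries, 78.9, 84.4 and 82.7 CPM in the Model libraries and 109, 94.6 and 112 CPM in the Ctrl libraries. Ctrl libraries were highest and did not overlap ChryM or Model libraries, and ChryM 3 reached the level of the Model libraries. The means were 69.6 ± 12.9 CPM in ChryM, 82.0 ± 2.78 CPM in Model and 105 ± 9.30 CPM in Ctrl (SD, n = 3 each). Usp29 fell in ChryM against Ctrl, at -0.60 ± 0.15 on the log2 scale (adjusted p = 0.00111), and passed the threshold in each of the 21 other settings tried. Its values were -0.35 ± 0.15 in Model against Ctrl (adjusted p = 0.115) and -0.25 ± 0.16 in ChryM against Model (adjusted p = 0.436).

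Usp33 (ENSRNOG00000011294), a deubiquitinase linked in mice and human cells to the Robo receptor of axon guidance, had 19.5, 31.6 and 20.1 CPM in the ChryM libraries, 26.8, 33.1 and 17.3 CPM in the Model libraries and 42.5, 40.9 and 34.2 CPM in the Ctrl libraries. ChryM and Model libraries overlapped and lay below all Ctrl libraries. Usp33 fell in ChryM against Ctrl, at -0.71 ± 0.24 on the log2 scale (adjusted p = 0.0243), and gave -0.64 ± 0.25 in Model against Ctrl (adjusted p = 0.0776). The ChryM against Ctrl call was lost without Ctrl 1 (adjusted p = 0.105), Ctrl 2 (0.0767), ChryM 1 (0.126) or ChryM 3 (0.106). That call was also lost with DESeq2 (adjusted p = 0.209) and with limma on log2(FPKM + 1) (0.0891). In Model against Ctrl, Usp33 was called without Model 2 (adjusted p = 0.0426) and with library totals (0.0301). Miga1, which overlaps Usp33, had 12 counts in ChryM, 8 in Model and 13 in Ctrl.

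Most of the cascade showed no called difference, and the class counts were small. Over all tested genes, 12.4% were called in Model against Ctrl, 8.27% in ChryM against Model and 18.8% in ChryM against Ctrl. Most genes of any kind were therefore not called. Neither the E1 of ubiquitin nor the 3 tested E1 genes of ubiquitin-like proteins were called in any comparison. Uba1, the main E1 of ubiquitin, had 68.4, 58.7 and 56.3 CPM in the ChryM libraries, 60.0, 38.0 and 53.3 CPM in the Model libraries and 62.5, 51.4 and 67.1 CPM in the Ctrl libraries, and the groups overlapped. Its log2 fold change was -0.24 ± 0.19 in Model against Ctrl (95% interval -0.62 to 0.14, adjusted p = 0.500). In ChryM against Model it was 0.27 ± 0.19 (95% interval -0.11 to 0.65, adjusted p = 0.480), and in ChryM against Ctrl 0.03 ± 0.18 (adjusted p = 0.940).

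Of the 21 tested E2 genes of ubiquitin, 1 was called in Model against Ctrl (Ube2q2l; 4.76%, against 12.4% of all genes). In ChryM against Model 0 were called, against 8.27%, and in ChryM against Ctrl 1 (Ube2z, 4.76% against 18.8%). In that order of comparisons, the median log2 fold changes of these E2 genes were -0.13, -0.12 and -0.21. Ube2d3, an E2 that serves many ligases, averaged 32.0 ± 3.26 CPM in ChryM, 35.4 ± 11.9 CPM in Model and 41.5 ± 6.88 CPM in Ctrl (SD, n = 3 each, as for the next means). Its log2 fold change in ChryM against Ctrl was -0.39 ± 0.22 (adjusted p = 0.224), with no overlap of those groups. After scaling, though, the highest ChryM library (ChryM 1, 28 counts) all but reached the lowest Ctrl library (Ctrl 3, 25 counts). Ube2k, known for binding huntingtin, averaged 40.5 ± 4.98 CPM in ChryM, 44.9 ± 7.64 CPM in Model and 50.8 ± 1.64 CPM in Ctrl, and in ChryM against Ctrl gave -0.32 ± 0.20 (adjusted p = 0.281), also with no overlap. Ube2b, a relative of yeast Rad6, averaged 38.9 ± 7.67 CPM in ChryM, 28.0 ± 9.06 CPM in Model and 31.3 ± 9.41 CPM in Ctrl and its groups overlapped. Ube2v2, an inactive partner of Ube2n in building chains, averaged 25.1 ± 7.77 CPM in ChryM, 26.5 ± 2.83 CPM in Model and 25.9 ± 0.167 CPM in Ctrl, with log2 fold changes between -0.08 and 0.04.

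None of the 4 tested E3 and E4 genes was called. Ube4b, which lengthens ubiquitin chains, averaged 35.9 ± 5.94 CPM in ChryM, 36.1 ± 6.08 CPM in Model and 35.6 ± 4.85 CPM in Ctrl (SD, n = 3 each), and its log2 fold change in ChryM against Ctrl was 0.02 ± 0.22, with a 95% interval of -0.41 to 0.46. Of the 26 tested USP genes, 1 was higher and 1 lower in Model against Ctrl (7.69% called, against 12.4% of all genes). None was called in ChryM against Model, against 8.27%. In ChryM against Ctrl 1 USP gene was higher and 3 were lower (15.4% called, against 18.8%). The median log2 fold changes of the USP genes were -0.15, 0.04 and -0.15 in that order of comparisons. Uchl3, the close relative of Uchl1, had 18.3, 10.2 and 14.7 CPM in the ChryM libraries, 7.89, 14.9 and 10.7 CPM in the Model libraries and 16.5, 18.7 and 9.58 CPM in the Ctrl libraries, with overlapping groups. In Model against Ctrl its log2 fold change was -0.45 ± 0.39 (95% interval -1.23 to 0.33, adjusted p = 0.544).

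Genes that encode ubiquitin itself were described beside the enzymes; such genes share near-identical ubiquitin repeats, and whether reads were split between them or with pseudogene copies was not tested. Ubb, a polyubiquitin gene, had 416, 508 and 517 CPM in the ChryM libraries, 373, 415 and 403 CPM in the Model libraries and 369, 367 and 346 CPM in the Ctrl libraries. Ubb lay highest in ChryM and lowest in Ctrl, and no pair of groups overlapped. The gaps were narrow, at 416 CPM in ChryM 1 against 415 in Model 2, and 373 in Model 1 against 369 in Ctrl 1. In Model against Ctrl its log2 fold change was 0.14 ± 0.09 (adjusted p = 0.377), which was not called. It rose by 0.41 ± 0.09 on the log2 scale in ChryM against Ctrl (adjusted p = 6.88e-05), a call kept whichever library was left out, and by 0.28 ± 0.09 in ChryM against Model (adjusted p = 0.0268). The ChryM against Model call was lost without Model 1 (adjusted p = 0.170), Model 2 (0.0525), Model 3 (0.0693), ChryM 2 (0.177) or ChryM 3 (0.166). It was also lost with DESeq2 (adjusted p = 0.0947).

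Rps27a encodes ubiquitin fused to a ribosomal protein. Rps27a had 117, 125 and 111 CPM in the ChryM libraries, 58.4, 87.7 and 109 CPM in the Model libraries and 87.3, 96.9 and 83.5 CPM in the Ctrl libraries. Every ChryM library lay above every Model and every Ctrl library, and Model 1 was the lowest. Rps27a rose by 0.45 ± 0.15 in ChryM against Model (adjusted p = 0.0339) and by 0.40 ± 0.14 in ChryM against Ctrl (adjusted p = 0.0288). The first call was lost without Model 1 (log2 fold change 0.25, adjusted p = 0.445), Model 2 (0.0771), ChryM 1 (0.0729) or ChryM 2 (0.154), and the second without Ctrl 1 (0.0956), Ctrl 3 (0.0927), ChryM 1 (0.0630) or ChryM 2 (0.120). Both calls were also lost with DESeq2 (adjusted p = 0.181 and 0.171).

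**Figure D4:**
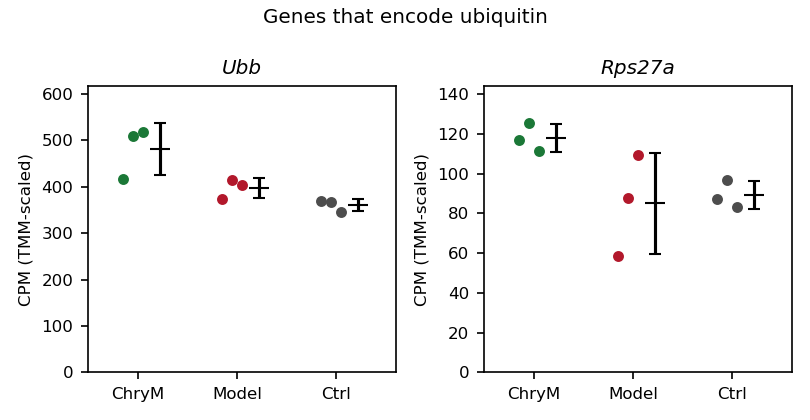
TMM-scaled CPM (y axis, from 0) of Ubb and Rps27a, which encode ubiquitin, in ChryM, Model and Ctrl libraries; dots are libraries, the bar beside them the mean ± SD (n = 3). Ubb is highest in ChryM (416 to 517 CPM), and every ChryM library of Rps27a lies above every Model and Ctrl library.

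Other genes of the ubiquitin pathway were read from lists drawn up with the members, beside called shares over all genes of 12.4% in Model against Ctrl, 8.27% in ChryM against Model and 18.8% in ChryM against Ctrl. Of 35 tested ligases of the HECT, RBR and RING types, 2 were higher and 2 lower in Model against Ctrl, 0 were called in ChryM against Model, and 4 were lower in ChryM against Ctrl; the median log2 fold changes were -0.07, 0.00 and -0.06. Trim2, a RING ligase of neurons, averaged 84.5 ± 9.71 CPM in ChryM, 78.3 ± 3.36 CPM in Model and 138 ± 13.8 CPM in Ctrl (SD, n = 3 each, as for the means of other genes here). Its log2 fold changes were -0.81 ± 0.14 in Model against Ctrl (adjusted p = 3.26e-06) and -0.71 ± 0.13 in ChryM against Ctrl (adjusted p = 1.07e-05), and both calls were kept whichever library was left out. Of 22 tested genes of cullin ligases and the COP9 signalosome, 2 were higher in Model against Ctrl, 1 was higher in ChryM against Model and 1 was higher in ChryM against Ctrl. The last was Elob, a subunit of cullin ligase adaptors, at 0.47 ± 0.14 (adjusted p = 0.00644, or 0.0556 without Ctrl 1 and 0.0533 with DESeq2).

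Of 10 tested deubiquitinases outside the USP and UCH families, 0 were called in Model against Ctrl or ChryM against Model, and 1 was higher and 1 lower in ChryM against Ctrl. The higher one was Otud7b, at 0.70 ± 0.24 (adjusted p = 0.0238), a call lost without Ctrl 2 (adjusted p = 0.118), Ctrl 3 (0.0748), ChryM 1 (0.134) or ChryM 3 (0.0653). The Otud7b call was also lost with DESeq2 (adjusted p = 0.163). Of 17 tested shuttle and segregase genes, which carry ubiquitinated proteins to the proteasome, 1 was called, Rad23b in ChryM against Ctrl. Rad23b averaged 38.1 ± 6.74 CPM in ChryM and 70.3 ± 2.77 CPM in Ctrl, a log2 fold change of -0.87 ± 0.19 (adjusted p = 1.31e-04) kept whichever library was left out.

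Of 32 tested proteasome subunit genes, 1 was lower in Model against Ctrl, 1 was higher and 1 lower in ChryM against Model, and 1 was higher and 2 lower in ChryM against Ctrl. Their median log2 fold changes were -0.05, 0.06 and 0.01 in that order, against -0.02, 0.00 and -0.01 over all tested genes. The higher gene in ChryM against Ctrl was Psmc5, an ATPase subunit, which averaged 220.1 ± 21.1 CPM in ChryM, 176 ± 9.42 CPM in Model and 165 ± 16.3 CPM in Ctrl. Its log2 fold change in ChryM against Ctrl was 0.41 ± 0.11 (adjusted p = 0.00217), a call kept whichever library was left out. That call was lost with limma on log2(FPKM + 0.1) (adjusted p = 0.0513).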

How the data were processed

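Poly(A) RNA of 9 hippocampal libraries (3 groups of 3) was sequenced after a directional library preparation, per the labels' protocols. The authors deposited 2 tables, 1 with whole-number counts per gene ID and 1 with FPKM and gene length, per the file headers. The submitters' processing notes name HISAT2 and DESeq2 with no version. Which counter, strand option, build and gene models were used is not given in the sources used here. FPKM as deposited equals count over length over library total, checked in 100.0% of values (relative tolerance 1e-06). Library totals were 631119 to 866048 counts; 4367 IDs without a name took 21.99% to 24.58% of them and stayed in the totals. No pair of libraries of the same group held identical values.

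The counts were fitted in 1 model with edgeR 4.0.16 (R 4.3.3; filterByExpr, TMM, robust quasi-likelihood, two-sided, Benjamini-Hochberg over 7073 genes, threshold 0.05), with 3 comparisons that share groups. CPM are TMM-scaled; the SE printed is the larger of the test's and the counting error; the 95% intervals are not adjusted. DESeq2 1.42.0, limma 3.58.1 (voom, and log2 of FPKM plus 1 or 0.1), other scalings and filters, a replicate block and leaving out each library were alternatives. The scripts were tested on simulated data.

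The 100 genes and the lists were chosen with earlier results of these data known. Named were members called in any comparison, the highest of each class, a panel of 10, and, of each other list, called genes by smallest p (up to 4, of which the text gives the first) and genes that encode ubiquitin; some genes the rule names are not reported here; other members were named after their values were seen. All 100 symbols were found in the RefSeq genes of GRCr8, where 46 overlap another gene, 19 of them on the opposite strand. Without a stated strand setting, the reads of such a gene and of its partner cannot be told apart. The upper limit for genes with no count covers counting error only.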

Additional observations from a re-analysis of the deposited data

How the results depend on the processing

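Between Model and Ctrl, where 4 members were called, library totals gave 8, a mean count of at least 30 gave 7, genes with no overlapping gene gave 1, and log2(FPKM + 1) and log2(FPKM + 0.1) gave 0 each; leaving out 1 library gave 2 to 6. Between ChryM and Model, where 0 were called, a mean count of at least 30 gave 1 (Ube2e1, adjusted p = 0.0375) and leaving out 1 library gave 0 to 1. Between ChryM and Ctrl, where 7 were called, DESeq2 gave 2, no count filter 4, log2(FPKM + 1) and log2(FPKM + 0.1) 3 each, and genes with no overlapping gene 2; leaving out 1 library gave 4 to 7. Fewer genes were tested under the count minimum and without overlapping genes; elsewhere the cause was not tested. DESeq2 gave an adjusted p for 6, 21 and 43 of the 60 members in the 3 comparisons. No named gene changed direction among its called values. Under the alternatives, most values of tested members and listed pathway genes stayed on the same side of the threshold. The counts were 1486 of 1554 (Model against Ctrl), 1513 of 1574 (ChryM against Model) and 1510 of 1602 (ChryM against Ctrl). Most of these values were of genes not called in the main test that stayed uncalled, so the counts say little about the calls. In that order, calls of the main test were lost in 50, 58 and 74 values, and calls were added in 18, 3 and 18. The settings for pathway genes and for members outside the naming rule were added after seeing the data.

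The replicate numbers do not pair the libraries: deviations of same-numbered libraries correlated between -0.03 and 0.04. With the replicate block, 4, 0 and 7 members were called, as without it. Tested members had a median of 191.5 counts over the 9 libraries, against 210 for all tested genes, which limits the precision of both.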
